A study of Mus musculus with 6 samples.

Results

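The genes described here carry the transforming growth factor beta (TGF-beta) signal from the ligand to the nucleus. They are the ligand gene Tgfb1, the receptor genes Tgfbr1, Tgfbr2, Tgfbr3 and Bmpr2, the Smad genes Smad2, Smad3, Smad4 and Smad7, and the nuclear repressor gene Skil. Members were every probe set of the array that the platform table assigned to exactly 1 of these 10 symbols, which gave 25 of 45101 probe sets. Levels were compared between haematopoietic stem cells of Lrg-47-/- mutant mice, which lack the interferon-induced GTPase Irgm1 (older name Lrg-47), and those of wild-type (WT) mice, with 3 arrays for each genotype. Both groups were C57BL/6 mice aged 8 to 12 weeks, and no treatment is given for either. The cells were sorted from whole bone marrow as the dye-effluxing side population, together with Sca-1, c-kit and lineage staining. The labels do not say whether the arrays of a genotype came from separate animals, pools or sorts, so the p-values measure only the spread between these arrays, which may be technical.

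TGF-beta binds the type II receptor Tgfbr2, which then phosphorylates the type I receptor Tgfbr1. The activated pair phosphorylates Smad2 and Smad3, which join Smad4, enter the nucleus and bind DNA at short motifs known as Smad boxes. Smad7 blocks the receptors and Skil represses the Smad complex, and both are induced by the pathway as negative feedback. Bmpr2 is the type II receptor of the related bone morphogenetic proteins (BMPs), whose signal runs through Smad1 and Smad5. In bone marrow, TGF-beta is known as a signal that holds stem cells in quiescence.

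The single Irgm1 probe set lay between 7.68 and 8.58 on the Irgm1-/- arrays and between 8.36 and 8.57 on the WT arrays, on the log2 scale used throughout. The deleted part of the gene is not given in the labels, so a probe set outside it would check nothing about the genotype, and the groups are named by their labels. Of 10 stem cell markers, 8 had a matched probe set and all 8 were tested. Their mean level was 10.33 to 10.61 on the Irgm1-/- arrays and 10.58 to 10.67 on the WT arrays. Limma called 0 of them. By their brightest probe set 5 of these genes had an unadjusted p under 0.05, and 16.4% of all probe sets tested did, a share not counted by gene. By log2 difference (Irgm1-/- minus WT), 7 were lower and 1 higher, from -0.82 to 1.43 with a median of -0.35. The 5 were Slamf1 (1.43), Kit (-0.82), Fgd5 (-0.57), Hlf (-0.48) and Procr (-0.37). Kit, which encodes the sorting marker c-kit, was lower on every Irgm1-/- array. Markers of T and NK cells stood apart. Their mean over 13 matched genes was 6.35, 6.06 and 7.93 on Irgm1-/- replicates 1, 2 and 3, and 4.57, 4.21 and 4.57 on the WT arrays. Of 9 tested, 5 rose (Ccl5, Gzmb, Thy1, Ms4a4b and Klrd1). The 4 that did not pass were Nkg7 (2.61), Cd2 (1.99), Cd3e (0.77) and Cd247 (0.19), at limma adjusted p values from 0.0532 to 0.829. Cd247 overlapped between the groups. Cd3e read 4.77, 4.68 and 6.56 on the Irgm1-/- arrays, against 4.47, 4.66 and 4.58 on the WT arrays. Gzmb and Cd2 each lay above the array median on 3 Irgm1-/- arrays and 1 WT array. Both entered the test through the group where they are high, so the call of Gzmb and the p of Cd2 support nothing. Irgm1-/- replicate 3 was the highest array for this list, and values without it are given below. Among the other lists, 1 of 5 tested monocyte and macrophage markers rose, Ms4a6c by 1.53 on the log2 scale (limma adjusted p = 0.0313). In the same list Cd14 was at -1.25 and did not pass (limma adjusted p = 0.0518). Of 3 tested stromal markers 1 fell, the collagen gene Col1a2 (-2.88, limma adjusted p = 0.00889), while Sparc was at 1.94 and did not pass (limma adjusted p = 0.0638). In the same list the collagen genes Col1a1 and Col3a1, and Lepr, Pecam1 and Lum, were at or below the bacterial control probe sets on all 6 arrays. Col1a2 alone therefore does not describe a stromal cell type. Cd14 and Sparc were named after their values were seen, as the markers farthest from the called ones, and neither overlapped between the groups. In sorted bulk cells, fewer cells of a type and less RNA per cell cannot be told apart.

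No gene of the group passed the threshold. Of the 25 member probe sets, 19 were tested, and they covered all 10 genes. Each of the 19 lay above the array median on all 6 arrays. Limma called 0 of the 19 at an adjusted p under 0.05, against 1.39% of all 22580 probe sets tested (0.664% higher and 0.722% lower on the Irgm1-/- arrays). At an unadjusted p under 0.05 there were 7 of 19 (36.8%), against 16.4% of all tested, and probe sets of 1 gene are not independent of each other. The 3 Irgm1-/- arrays lay wholly below the WT arrays for 4 of 19 probe sets and wholly above for 1, where 11% and 11.5% of all tested probe sets did so. Either way these were 5 of 19 (26.3%), against 22.6% of all tested. By the brightest tested probe set of each gene, 6 genes had a lower and 4 a higher mean on the Irgm1-/- arrays. The median log2 difference (Irgm1-/- minus WT) over the 10 genes was -0.062, and over all 10374 genes tested it was 0.0032.

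**Figure D1:**
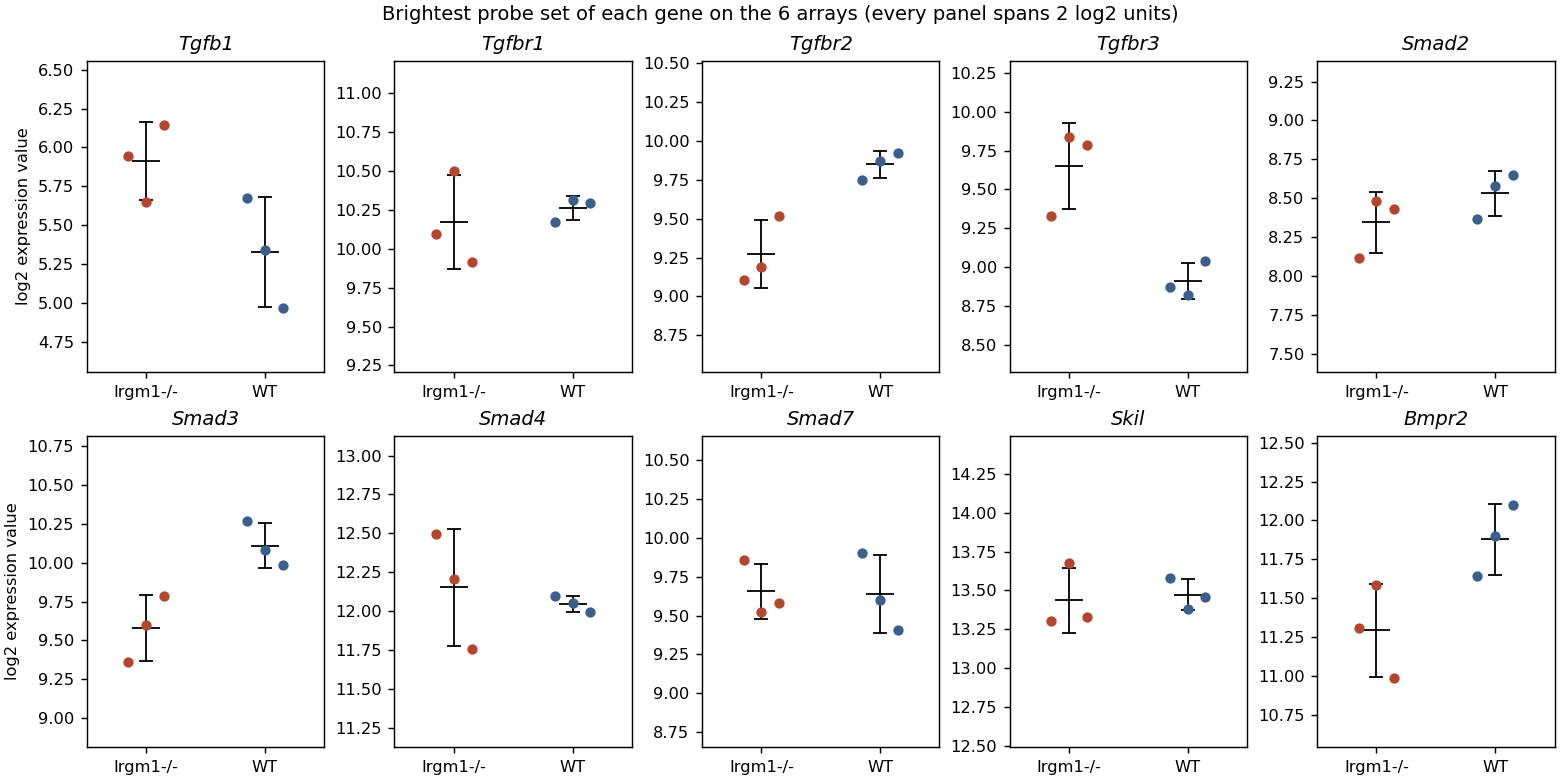
Log2 expression value of the brightest probe set of each of the 10 genes, by genotype, with Irgm1-/- left of WT; points are arrays in replicate order, the wide bar is the mean and the whisker 1 SD (n = 3 each). Each panel spans 2 log2 units on its own level. The groups do not overlap for Tgfbr2, Tgfbr3, Smad3 and Bmpr2.

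The ligand gene Tgfb1 encodes the main TGF-beta form of blood cells and platelets. Its brighter probe set (1445360_at) read 5.94, 5.65 and 6.14 on the Irgm1-/- arrays, against 5.67, 5.34 and 4.97 on the WT arrays. The highest WT array lay above the lowest Irgm1-/- array, so the groups overlapped. The log2 difference was 0.59 (SE 0.23, 95% interval 0.05 to 1.12), and it did not pass (limma adjusted p = 0.272). The other probe set (1420653_at) read 5.76, 5.70 and 5.78 on the Irgm1-/- arrays, against 5.77, 5.44 and 3.69 on the WT arrays. Its difference of 0.78 (SE 0.49, limma adjusted p = 0.477) was 0.15 without WT replicate 3, the array at 3.69.

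The type III receptor Tgfbr3, also called betaglycan, presents the ligand to Tgfbr2. It showed the smallest p of the 10 genes. Its probe set 1433795_at read 9.33, 9.83 and 9.78 on the Irgm1-/- arrays, against 8.87, 8.82 and 9.04 on the WT arrays. Every Irgm1-/- array was above every WT array. The means were 9.65 ± 0.28 and 8.91 ± 0.12 (SD, n = 3 each), which is 1.67-fold higher or 0.74 on the log2 scale (SE 0.18, 95% interval 0.32 to 1.16), with a limma adjusted p of 0.116. Without Irgm1-/- replicate 3 the difference was 0.67.

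Tgfbr2, the receptor that binds the ligand, pointed the other way on its brightest probe set. Values of 1426397_at were 9.10, 9.19 and 9.52 on the Irgm1-/- arrays, against 9.75, 9.87 and 9.93 on the WT arrays. Every Irgm1-/- array was below every WT array. The means were 9.27 ± 0.22 and 9.85 ± 0.09 (SD, n = 3 each), which differed on the log2 scale by -0.58 (SE 0.16, 95% interval -0.95 to -0.20, limma adjusted p = 0.149). This corresponds to a level 1.49-fold lower on the Irgm1-/- arrays. The second tested probe set of the gene, 1425444_a_at, did not share the difference (-0.01, SE 0.13, 95% interval -0.32 to 0.30). With the tested probe sets of a gene averaged, Tgfbr2 was at -0.30 (limma adjusted p = 0.316). In that fit Tgfbr3 had the smallest adjusted p of the 10 genes (0.74, limma adjusted p = 0.0683) and did not pass. Smad3 was at -0.53 (limma adjusted p = 0.129) and Bmpr2 at -0.55 (limma adjusted p = 0.200). The brightest probe sets of Tgfbr2 and Tgfbr3 passed in 1 alternative, a fit with array weights, at limma adjusted p values of 0.0494 and 0.0441.

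The type I receptor Tgfbr1, the kinase that phosphorylates Smad2 and Smad3, showed no detectable difference at this number of arrays. Its probe set 1420895_at read 10.10, 10.50 and 9.91 on the Irgm1-/- arrays, against 10.17, 10.31 and 10.30 on the WT arrays, so the WT values lay inside the Irgm1-/- range. The log2 difference was -0.09 (SE 0.18, 95% interval -0.50 to 0.32).

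Bmpr2, the BMP receptor of the group, had a lower mean on the Irgm1-/- arrays by all 3 of its probe sets. The brightest, 1434310_at, read 11.31, 11.59 and 10.99 on the Irgm1-/- arrays, against 11.64, 11.90 and 12.10 on the WT arrays. The groups did not overlap, although the gap between the nearest arrays was small. The log2 difference was -0.59 (SE 0.19, 95% interval -1.03 to -0.15, limma adjusted p = 0.198). Probe set 1441652_at read 5.55, 5.24 and 4.98 on the Irgm1-/- arrays, against 5.64, 6.41 and 5.72 on the WT arrays. Those groups also did not overlap, with a difference of -0.67 (SE 0.26, limma adjusted p = 0.263). Probe set 1419616_at overlapped between the groups at -0.39 (SE 0.23, limma adjusted p = 0.442). Irgm1-/- replicate 3 gave the lowest value on all 3 probe sets, and without it the differences were -0.43, -0.53 and -0.20, in the order in which the probe sets are given here.

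**Figure D2:**
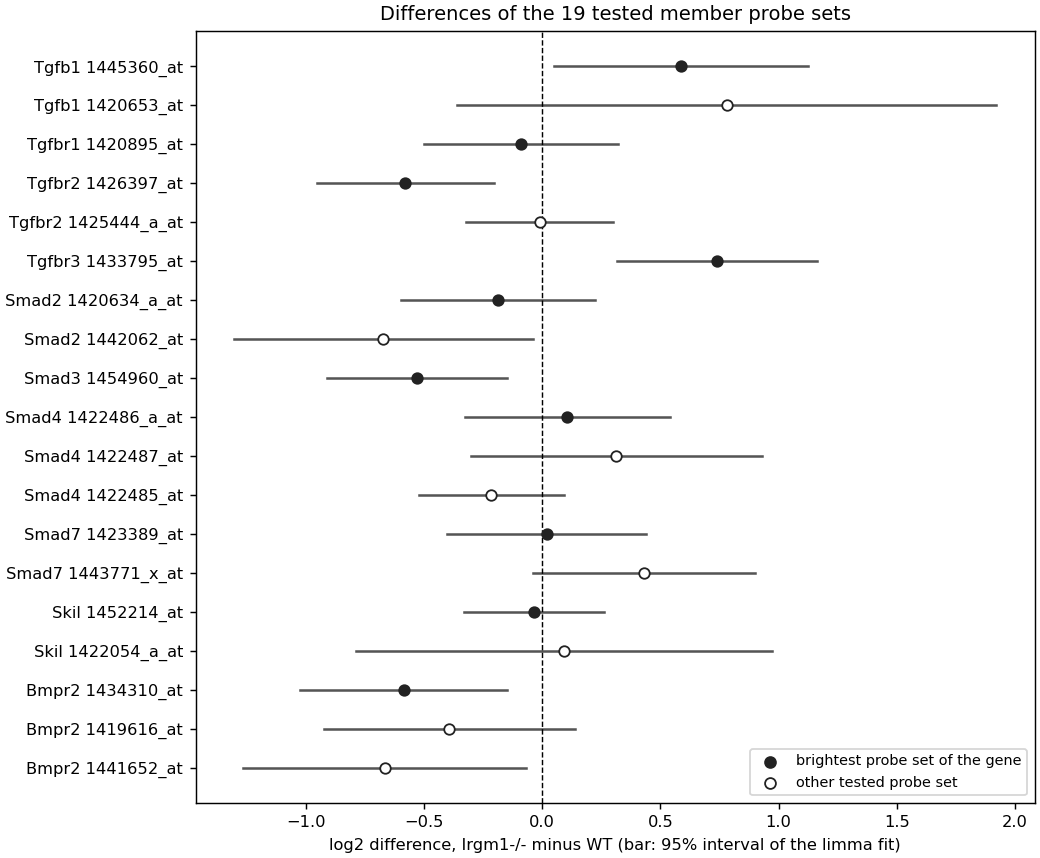
Log2 difference (Irgm1-/- minus WT) of each tested member probe set with its 95% interval from the limma fit; filled points are the brightest probe set of a gene and open points the others. The intervals of the brightest Tgfbr2, Smad3 and Bmpr2 probe sets and of Smad2 1442062_at and Bmpr2 1441652_at lie below 0. Those of Tgfbr3 and the brightest Tgfb1 probe set lie above 0, while 0 of the 19 passed after adjustment over all 22580.

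Among the Smads that the receptors activate, Smad3 was lower on every Irgm1-/- array. Probe set 1454960_at read 9.36, 9.60 and 9.79 on the Irgm1-/- arrays, against 10.27, 10.08 and 9.98 on the WT arrays. The means were 9.58 ± 0.21 and 10.11 ± 0.14 (SD, n = 3 each), which differed on the log2 scale by -0.53 (SE 0.16, 95% interval -0.91 to -0.15, limma adjusted p = 0.185), which is 1.44-fold lower. Smad2, the partner with the same place in the pathway, read 8.12, 8.48 and 8.43 on the Irgm1-/- arrays, against 8.37, 8.58 and 8.65 on the WT arrays (1420634_a_at). These groups overlapped, with a difference of -0.19 (SE 0.18, 95% interval -0.60 to 0.22, limma adjusted p = 0.644). The dimmer Smad2 probe set 1442062_at overlapped as well, at -0.67 (SE 0.27, limma adjusted p = 0.283).

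Smad4, the shared partner of both branches, was measured by 3 probe sets that did not share a sign. The brightest, 1422486_a_at, read 12.50, 12.20 and 11.75 on the Irgm1-/- arrays, against 12.09, 12.05 and 11.99 on the WT arrays. The Irgm1-/- values enclosed the WT values, and the difference was 0.11 (SE 0.19, 95% interval -0.33 to 0.54). Probe set 1422487_at had the same shape, with 11.76, 11.56 and 10.70 on the Irgm1-/- arrays, against 10.93, 11.10 and 11.05 on the WT arrays. In both, Irgm1-/- replicate 3 was the lowest of the 6 arrays, and without it the differences were 0.30 and 0.64 (limma adjusted p = 0.272 and 0.0833). The probe set 1422485_at stood at -0.22 (SE 0.13, limma adjusted p = 0.465). Over the 19 tested probe sets, the SD was larger among the Irgm1-/- arrays than among the WT arrays for 12 (63.2%), and for 52.1% of all probe sets tested.

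The feedback inhibitors overlapped between the genotypes. Smad7 read 9.86, 9.52 and 9.58 on the Irgm1-/- arrays, against 9.90, 9.60 and 9.40 on the WT arrays (1423389_at), a log2 difference of 0.02 (SE 0.18, 95% interval -0.40 to 0.44). Its dimmer probe set 1443771_x_at, of a type that can also pick up related transcripts, stood at 0.43 (SE 0.20, limma adjusted p = 0.342). Skil, which encodes SnoN, read 13.31, 13.68 and 13.33 on the Irgm1-/- arrays, against 13.58, 13.38 and 13.46 on the WT arrays (1452214_at). The difference was -0.03 (SE 0.13, 95% interval -0.33 to 0.26), the narrowest of the intervals of the brightest probe sets. The dimmer Skil probe set 1422054_a_at had a wider interval, at 0.09 (SE 0.38, 95% interval -0.79 to 0.97). The 95% intervals of Smad7, Skil and Tgfbr1 all lay within 1 log2 unit (2-fold) of 0. These intervals rest on the spread between these arrays only, so they set no limit on a difference between the genotypes.

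The 6 untested probe sets belonged to Tgfbr1, Tgfbr2, Tgfbr3 and Smad3. On all 6 arrays, 5 of them lay at or below 3.18, the highest value of 27 control probe sets for bacterial transcripts. These probe sets were not above background in either group, although each of the 4 genes had a brighter probe set. The sixth, 1450472_s_at of Smad3, lay between 3.45 and 3.50 on the Irgm1-/- arrays and between 3.43 and 3.48 on the WT arrays. None of the 10 genes shares chromosome 11 with Irgm1 in the RefSeq table of assembly GRCm38.p6.

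The rest of the pathway was described by 6 lists of other genes, sorted by role. Of 111 genes on these lists, 107 had a matched probe set and 85 were tested. Limma called 2 of the 85 higher and 0 lower, against 1.08% and 0.954% of all 10374 genes tested, or 2.03% in either direction. The median log2 difference of the 85 was -0.043, and over all 10374 genes tested it was 0.0032. Of the 85, 48 had a lower and 37 a higher mean on the Irgm1-/- arrays. At an unadjusted p under 0.05 there were 12 of the 85 genes, against 16.4% of all probe sets tested. The same 16.4%, counted by probe set, stands beside the count of each list below. The 2 genes that rose were Id2 and Id3, which encode inhibitors of basic helix-loop-helix transcription factors and are known as direct targets of BMP and Smad signalling.

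Both Id genes were higher on every Irgm1-/- array. Id3 (1416630_at) read 8.52, 8.13 and 8.86 on the Irgm1-/- arrays, against 6.62, 7.05 and 7.07 on the WT arrays. It rose 3.01-fold, a log2 difference of 1.59 (SE 0.24, 95% interval 1.03 to 2.15, limma adjusted p = 0.0313). Id2 (1435176_a_at) read 7.75, 7.32 and 8.17 on the Irgm1-/- arrays, against 6.23, 6.37 and 6.02 on the WT arrays. It rose 2.91-fold, a difference of 1.54 (SE 0.25, 95% interval 0.96 to 2.12, limma adjusted p = 0.038). The second tested probe set of Id2, 1422537_a_at, also did not overlap between the groups, at 0.67 (SE 0.28, limma adjusted p = 0.286). It was dim, above the array median on 3 Irgm1-/- and 2 WT arrays. The Irgm1-/- arrays alone met the filter, so its difference adds no support. The third Id2 probe set, 1453596_at, was not tested and lay at or below the bacterial controls on all 6 arrays.

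Id1, the third classical BMP target of this family, was looked up after its values were seen. It read 7.41, 5.37 and 6.67 on the Irgm1-/- arrays, against 5.85, 6.02 and 5.71 on the WT arrays, and 1 of the Irgm1-/- arrays was the lowest of all 6. Its difference was 0.62 (SE 0.47, limma adjusted p = 0.556).

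Both calls were lost without any 1 of the 6 arrays, where the differences were 1.41 to 1.78 for Id3 and 1.33 to 1.75 for Id2 (limma adjusted p up to 0.134 and 0.144), and also when dim probe sets were not filtered, when the filter was set at the 25th percentile or with the replicate number as a block. On the same Irgm1-/- arrays the T and NK cell list had a higher mean, at 6.06 to 7.93 against 4.21 to 4.57 on the WT arrays. So had the megakaryocyte and platelet list, at 7.04 to 7.28 on the Irgm1-/- arrays and 6.56 to 6.67 on the WT arrays. Not every T and NK cell marker followed its list mean. Cd3e was at 0.77 (limma adjusted p = 0.464), and Cd247 overlapped between the groups at 0.19 (limma adjusted p = 0.829). Of 8 matched megakaryocyte markers, 7 were tested, of which 2 passed as higher (Selp and Gp1bb) and 1 fell (Mmrn1). Gp1bb lay above the array median only on the Irgm1-/- arrays, so it entered the test through the group where it is high and its call supports nothing. Of the 13 T and NK cell markers, 4 were at or below the bacterial controls on all WT arrays and 1, Prf1, on all 6 arrays. Irgm1-/- replicate 3 was the highest array for Id2, Id3 and the T and NK cell list alike. Without it Id3 was at 1.41 and Id2 at 1.33 (limma adjusted p = 0.0563 and 0.057). The part of these cell types in the result was not tested.

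**Figure D3:**
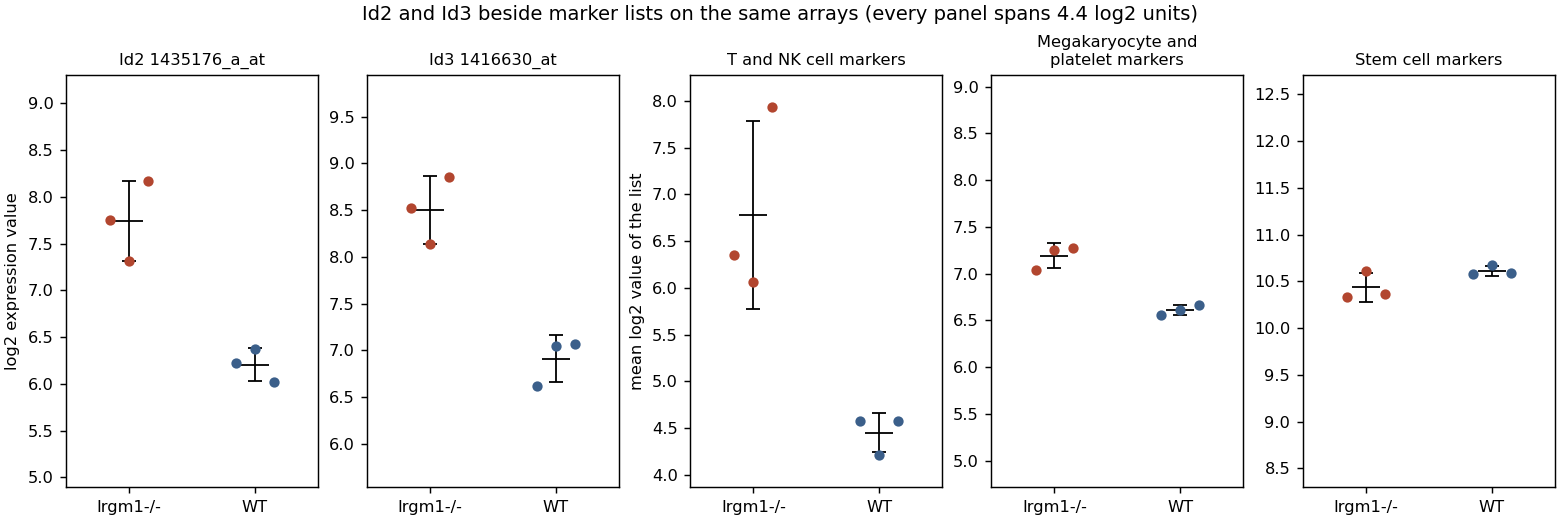
Log2 expression value of Id2 and Id3 (left panels) and mean log2 value over the matched genes of 3 marker lists (right panels) on each array, with Irgm1-/- left of WT; points are arrays in replicate order, the wide bar is the mean and the whisker 1 SD (n = 3 each). Each panel spans 4.4 log2 units. The 3 Irgm1-/- arrays lie above the WT arrays in all panels but that of the stem cell markers.

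The promoters of the genes that rose, and that of Tgfbr2 as the ligand-binding receptor, are printed because Smad complexes bind DNA by short motifs. Each is the RefSeq stretch of assembly GRCm38.p6 from 250 bases before to 50 bases after the annotated start, 5′ to 3′ on the gene's strand. The Smad box was searched as CAGAC on both strands, so that it also appears as its complement GTCTG. The palindrome GGCGCC is known from BMP-responsive elements. Matches to either motif are in capitals, and matches do not overlap in these stretches.
Id3, chr4:136143572-136143871, plus strand: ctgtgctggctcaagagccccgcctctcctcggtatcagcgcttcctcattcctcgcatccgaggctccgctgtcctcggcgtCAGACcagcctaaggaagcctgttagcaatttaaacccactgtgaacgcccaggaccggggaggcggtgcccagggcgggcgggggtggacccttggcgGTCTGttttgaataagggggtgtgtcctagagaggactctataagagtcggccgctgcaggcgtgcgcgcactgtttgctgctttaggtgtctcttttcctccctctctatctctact
Id2, chr12:25096043-25096342, minus strand: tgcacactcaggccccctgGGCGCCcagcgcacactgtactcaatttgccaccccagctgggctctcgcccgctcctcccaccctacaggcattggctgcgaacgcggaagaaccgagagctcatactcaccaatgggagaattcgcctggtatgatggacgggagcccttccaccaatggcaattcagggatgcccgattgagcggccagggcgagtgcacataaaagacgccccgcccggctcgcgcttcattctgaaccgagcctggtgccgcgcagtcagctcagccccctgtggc
Tgfbr2, chr9:116175314-116175613, minus strand: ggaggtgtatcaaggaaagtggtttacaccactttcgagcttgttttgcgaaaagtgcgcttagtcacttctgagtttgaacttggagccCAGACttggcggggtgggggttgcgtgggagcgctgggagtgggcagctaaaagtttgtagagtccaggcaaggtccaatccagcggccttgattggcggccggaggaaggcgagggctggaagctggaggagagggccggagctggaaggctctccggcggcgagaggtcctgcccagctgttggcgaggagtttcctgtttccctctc

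The Id3 stretch held Smad boxes that begin 167 and 68 bases before the start, the Id2 stretch held 1 GGCGCC that begins 231 bases before it, and the Tgfbr2 stretch held 1 Smad box that begins 160 bases before it. Of all 32851 promoter stretches in the table, 49.6% held a Smad box and 11.9% held GGCGCC. For the 10 described genes, 5 had entries, with 6 stretches. Of these 6, 2 held a Smad box (Tgfbr1 and Tgfbr2) and 2 held GGCGCC (Tgfbr1 and Bmpr2). A match describes these letters and shows no binding.

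Of the 28 tested target genes, 2 rose, 0 fell and 26 did not pass, with a median difference of 0.11. At an unadjusted p under 0.05 there were 6 of the 28, against 16.4% of all probe sets tested. Thbs1, which encodes thrombospondin 1, an activator of latent TGF-beta as well as a target, read 6.99, 7.39 and 6.52 on the Irgm1-/- arrays, against 7.92, 9.09 and 8.32 on the WT arrays. The groups did not overlap, at a difference of -1.48 (SE 0.35, limma adjusted p = 0.105), and its other probe set was also lower on every Irgm1-/- array (-0.42, SE 0.15). With the filter on dim probe sets at the 70th percentile of each array, Thbs1 passed (limma adjusted p = 0.0361). Several further targets were looked up after their values were seen. The CDK inhibitor genes Cdkn1a and Cdkn1b, through which TGF-beta is known to restrain the cell cycle, were at 0.75 (SE 0.32) and 0.48 (SE 0.26), and Cdkn1c at -0.63 (SE 0.17), none past the threshold (limma adjusted p = 0.309, 0.408 and 0.143). Cdkn1c was lower on every Irgm1-/- array, while Cdkn1a and Cdkn1b overlapped between the groups. Myc, which the pathway represses in epithelial cells, was at 0.01 (SE 0.17).

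**Figure D4:**
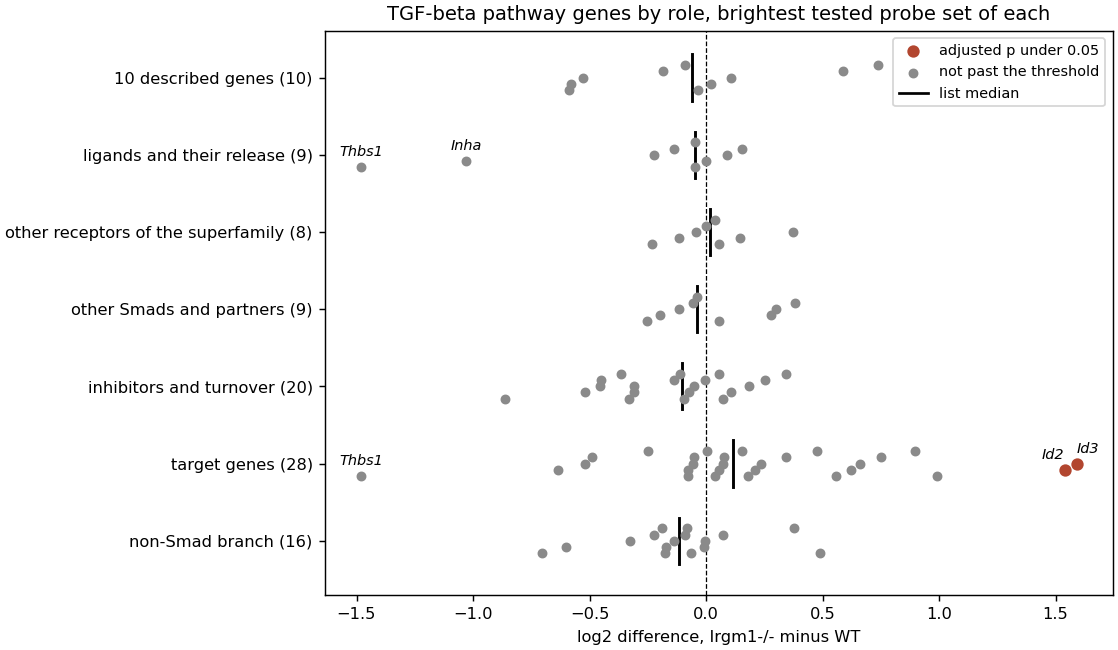
Log2 difference (Irgm1-/- minus WT) of each tested gene by its brightest probe set, grouped by role, with the number tested in brackets and the list median as a black bar; points are spread vertically only for legibility. Red points passed the threshold (Id2 and Id3 only), and Thbs1 is drawn on both lists that hold it.

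Of 9 tested ligand and ligand-release genes, 0 passed (1 at unadjusted p under 0.05, Thbs1) and the median difference was -0.049. Inha, the inhibin alpha subunit, was at -1.03 (SE 0.54) and Inhba, the activin A subunit, at -0.23 (SE 0.25), with overlapping groups for both. Inha passed with the actin control gap as a covariate, a fit chosen after seeing the data (-1.29, limma adjusted p = 0.0255). A further 9 ligand and release genes, Tgfb2 among them, were at or below the bacterial controls on all 6 arrays. Of 8 other receptors of the superfamily, 0 passed (0 at unadjusted p under 0.05). They included the BMP receptor Bmpr1a (-0.23, SE 0.15), the co-receptor endoglin, Eng (0.37, SE 0.27), and the decoy receptor Bambi (0.14, SE 0.22).

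Of 9 other Smads and partners, 0 passed (0 at unadjusted p under 0.05). The coactivators Crebbp and Ep300 were at 0.30 (SE 0.19) and 0.28 (SE 0.21), and Sp1 at 0.38 (SE 0.27). Dimmer probe sets of Crebbp and Sp1 had the opposite sign and did not overlap between the groups, at -0.63 (SE 0.19, limma adjusted p = 0.182) for Crebbp 1434633_at and -0.80 (SE 0.22, limma adjusted p = 0.145) for Sp1 1454852_at.

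Of 20 inhibitors and turnover genes, 0 passed, and 3 had an unadjusted p under 0.05, against 16.4% of all probe sets tested. A lower mean on the Irgm1-/- arrays was seen for 14, and the median was -0.10. The share of all genes with a lower mean was not computed. Ppm1a, a phosphatase of Smad2 and Smad3, was at -0.45 (SE 0.13, limma adjusted p = 0.156) and did not overlap between the groups, while its 8 tested probe sets ranged from -0.80 to 0.04. Ski, the relative of Skil, read 9.98, 10.01 and 10.29 on the Irgm1-/- arrays, against 10.84, 10.50 and 10.31 on the WT arrays, at -0.45 (SE 0.18, limma adjusted p = 0.271). The deubiquitinase Usp11 was at -0.86 (SE 0.23, limma adjusted p = 0.132) and lay above the array median only on WT arrays, so it entered the test through the group where it is high and its p supports nothing. The same holds for its limma adjusted p of 0.0132 without Irgm1-/- replicate 3, of 0.0252 with array weights and of 0.0299 with the actin gap as a covariate.

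Of 16 genes of the non-Smad branch, 0 passed, and 3 had an unadjusted p under 0.05, against 16.4% of all probe sets tested. A lower mean on the Irgm1-/- arrays was seen for 13 (median -0.11), again without a share over all genes. The stress kinase gene Mapk8, which encodes JNK1, was lower on every Irgm1-/- array by each of its 3 tested probe sets (-0.60, -0.62 and -0.88, limma adjusted p = 0.221, 0.188 and 0.157). The adaptor Shc1 was at -0.70 (SE 0.23, limma adjusted p = 0.201), and Tab2, an adaptor of the kinase TAK1, at 0.49 (SE 0.16, limma adjusted p = 0.199), where its other probe set was at -0.09 (SE 0.19).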

How the data were processed

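RNA of sorted haematopoietic stem cells was amplified in 2 rounds of T7 transcription and hybridised to 6 arrays, per the labels' protocols, which favours transcript 3′ ends. The deposited values are log2 expression values per probe set, made by the authors with GCRMA, as the submitters' processing notes name it. That method corrects background by probe sequence, normalises between arrays and summarises probes. Its version was not found in the labels, and the range of the values shows the log2 scale. Differences of dim probe sets depend on the background correction.

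The values were used as deposited. Genotypes were compared in R 4.3.3 with limma 3.58.1 (lmFit, and eBayes with an intensity trend), with Benjamini-Hochberg adjustment over all 22580 probe sets above the array median on at least 3 of 6 arrays. The threshold was an adjusted p under 0.05. Tests were 2-sided. Each gene took the values of its brightest tested probe set. The fit was run on simulated data with independent noise as a check of the code only, which says nothing about the differences found here. The actin control gap (3′ minus 5′) was 2.86, 2.81 and 3.56 on Irgm1-/- replicates 1, 2 and 3. On WT replicates 1, 2 and 3 it was 3.16, 3.16 and 2.57. Thus Irgm1-/- replicate 3 had the largest gap and WT replicate 3 the smallest, and both arrays stood apart for some probe sets above.

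The members, gene lists and tests were chosen with earlier results of these data known. Genes named were the members, pathway genes past the threshold or among the 3 smallest p of a list, and markers past it. Id1, the Cdkn1 genes, Myc and the markers that did not pass, Cd14 and Sparc among them, were added after their values were seen. Deviations of same-numbered arrays from their group means correlated at -0.11, -0.018 and -0.28. With 3 arrays per group these values cannot exclude a sort or batch shared by number. The main fit did not pair the arrays. The number of arrays limits the precision.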

Additional observations from a re-analysis of the deposited data

How the results depend on the processing

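None of the member probe sets passed in any of 16 other fits except with array weights, where 2 did (Tgfbr2 and Tgfbr3, 2 genes by the brightest probe set). The count over all probe sets, 313, was 103 with no filter on dim probe sets, 126 with a filter at the 25th percentile, 864 with array weights, 68 with the replicate block and 515 with the actin gap as a covariate, which was chosen after seeing the data. It ranged from 19 to 250 when 1 array was left out, lowest without WT replicate 2. The count of other pathway genes called, 2, became 0, 0, 4, 0 and 4 in the same 5 fits and 0 to 1 when 1 array was left out, where the 1 was Usp11 without Irgm1-/- replicate 3. Usp11 was also among the 4 of both fits that gave 4, with Skp2 under array weights and Inha under the actin covariate, and a filter at the 70th percentile gave 3, with Thbs1. The 10 marker genes called became 5, 6 and 16 in the first 3 of these fits and 1 to 9 with 1 array left out. The replicate block ended the calls of Id2 and Id3 (adjusted p = 0.14 and 0.11) and made no call among the members. The members' median ranged from -0.21 without Irgm1-/- replicate 2 to 0.030 without replicate 3. Small differences changed sign. Smad7 (1423389_at) was at -0.0069 with median centring and -0.026 with array weights, and Tgfbr1 at 0.015 and Skil (1452214_at) at 0.055 with array weights. With 1 array left out, Smad7 ranged from -0.097 to 0.15, Tgfbr1 from -0.25 to 0.040, Skil from -0.16 to 0.031 and (1422054_a_at) from -0.34 to 0.34, Smad4 (1422486_a_at) from -0.067 to 0.30, Tgfbr2 (1425444_a_at) from -0.096 to 0.074 and Bambi from -0.061 to 0.25. The cause of these changes was not tested, and leaving out an array also leaves fewer arrays.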
